A study of Homo sapiens with 12 samples.

Results

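The genes described here encode enzymes, regulators and a transporter of cholesterol and fatty acid synthesis. They were a list of 30 human genes, and a gene was counted where a probe set of the array carried its symbol and no other, the brightest such probe set standing for the gene. By that rule 26 of the 30 were measured, of 19775 genes with a probe set of their own. The 4 others (FDFT1, CYP51A1, FADS1 and ACSL3) had no such probe set and are not analysed here. All 26 lay above the filter on dim probe sets, which left 14649 genes for testing.

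Expression was measured on 12 Affymetrix arrays of A549, an established human lung adenocarcinoma line. Sorting after Hoechst staining (5 µg/ml, 90 min) gave the side population (SP), cells that export the dye, and the dye-retaining remainder (non-SP). Both fractions were taken after 48 h with a monoclonal antibody to EpCAM (100 µg/ml) and from untreated cells, for which the labels name no control antibody. The 4 groups were anti-EpCAM SP, anti-EpCAM non-SP, untreated SP and untreated non-SP, with 3 biological replicates each. The labels call the antibody anti-mouse EpCAM without saying whether mouse is its host or its target, and all groups are the same single cell line in culture.

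Cells build cholesterol from acetyl-CoA through the mevalonate pathway, which ends in isoprenoid units, and then through squalene and a chain of sterol intermediates. Fatty acid synthesis starts from the same acetyl-CoA and adds elongation and desaturation steps. The SREBP transcription factors, encoded by SREBF1 and SREBF2, switch on genes of both routes when membrane sterol is low, after SCAP escorts them from the endoplasmic reticulum to the Golgi, while INSIG proteins hold SCAP back when sterol is plentiful. In the lung, lipid synthesis is known for supplying surfactant in alveolar type II cells, the cell type that A549 is often used to model.

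To show the promoter letters that bear on this control, the 250 bases before the start site are printed for 3 of them, from RefSeq's GRCh38.p14 table, 5′ to 3′ on the strand of the gene. HMGCS1 is shown because its fraction difference was the largest of the 26, although it did not pass (adjusted p = 0.0922, limma). SREBF2 and INSIG1 are shown because they are the SREBP2 gene itself and its feedback inhibitor. Capitals mark matches on either strand to TCACNCCAC (a core form of the sterol regulatory element), CCAAT (the NF-Y box, ATTGG on the other strand) and CACGTG (an E-box).
HMGCS1 (chr5:43313413-43313662, minus strand, the more upstream of 2 starts): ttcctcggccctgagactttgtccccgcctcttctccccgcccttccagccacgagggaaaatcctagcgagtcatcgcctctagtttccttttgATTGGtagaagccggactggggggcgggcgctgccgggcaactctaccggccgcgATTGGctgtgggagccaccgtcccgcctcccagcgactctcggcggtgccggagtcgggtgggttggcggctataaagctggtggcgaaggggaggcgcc
SREBF2 (chr22:41832855-41833104, plus strand): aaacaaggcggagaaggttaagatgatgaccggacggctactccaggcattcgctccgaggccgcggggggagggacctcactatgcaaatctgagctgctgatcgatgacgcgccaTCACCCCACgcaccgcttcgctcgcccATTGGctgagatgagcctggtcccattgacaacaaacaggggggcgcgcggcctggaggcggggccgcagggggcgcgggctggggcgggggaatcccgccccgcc
INSIG1 (chr7:155297628-155297877, plus strand): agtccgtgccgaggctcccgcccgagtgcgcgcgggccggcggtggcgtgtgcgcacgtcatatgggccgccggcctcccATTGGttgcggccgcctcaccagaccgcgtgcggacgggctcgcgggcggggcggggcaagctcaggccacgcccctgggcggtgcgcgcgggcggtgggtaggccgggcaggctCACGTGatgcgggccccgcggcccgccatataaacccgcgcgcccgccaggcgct
SREBF2 carried TCACNCCAC 133 bases before its start and an inverted CCAAT 106 bases before it. HMGCS1 carried inverted CCAAT boxes at 155 and 100 bases before the start, and INSIG1 an inverted CCAAT at 170 and CACGTG at 55. The table held 32 promoters of 23 of the 26 genes. On either strand CCAAT was present in 22 of these 32, against 32% of all 35116 promoters, TCACNCCAC in 1 of 32, against 0.883%, and CACGTG in 4 of 32, against 6.34%. A match is a description of the letters and not a site shown to be bound.

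Values are RMA log2 expression values as deposited, so a difference of 1 is a 2-fold change. Array medians ranged from 5.58 to 6.24, and the distributions of values matched closely between SP and non-SP arrays that share treatment and number, but not between other arrays. In these 6 pairs the deviations from the group means correlated with r of 0.62 to 0.89 across genes. Fractions were compared within these pairs, which the labels do not state to be shared sorts. Whether the correlation reflects a shared sort or shared processing of the arrays was not tested. The 6 epithelial markers ranged from 8.73 to 14.8 over the 12 arrays, with KRT18 at 14.3 or more in each. Of 13 markers of fibroblasts, leukocytes and endothelium, 6 had means below the filter. Their highest arrays read 4.62 (LUM), 4.62 (PTPRC), 5.07 (LYZ), 5.94 (VWF, above the filter value of 5.39), 4.10 (CDH5) and 3.99 (KDR). The other 7 reached no more than 7.43 (CD14), and their part in the results was not tested. ABCG2, the pump that exports Hoechst dye, was higher in SP cells by 0.49 ± 0.06 (SE, adjusted p = 0.00375, limma), a call lost without pairing (adjusted p = 1.00) and with a trended, robust variance prior (adjusted p = 0.111). The beta-actin 3′ to 5′ control ratio, a measure of RNA integrity, was close between the arrays of the untreated pairs (SP minus non-SP of -0.36 to -0.25 log2) but differed by 1.86 in anti-EpCAM pair 1 and by -2.09 in anti-EpCAM pair 3.

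The first question was whether side population cells hold transcripts of these genes at another level than the non-SP remainder. Over the 6 pairs, 0 of the 26 genes passed at an adjusted p under 0.05 in limma, where 2.47% of all genes tested passed (0% when the pairing was dropped or when the variance prior was given a trend and made robust). At an unadjusted p under 0.05 limma counted 1 of 26, HMGCS1, where 16.2% of all genes did. The differences between SP and non-SP ran from -0.12 in TM7SF2 to 0.28 in HMGCS1, with 11 genes above 0 and 15 below. Their median was -0.0092, beside a median of 0.0056 over all genes, and the median size without regard to sign was 0.051, beside 0.063 over all genes. The mean over the 26 genes was 0.00065 ± 0.052 (SD over 6 pairs), and it was above 0 in 3 of the pairs. For 19 of the 26 genes the 95% interval of the difference lay within 0.25 log2 of 0, which is a 1.19-fold change either way. For all 26 it lay within 0.5 log2, which is 1.41-fold. These bounds hold for the brightest probe sets in the paired fit. Dimmer probe sets of HMGCS1, SQLE and IDI1 had estimates beyond 0.5 log2, at 0.52, 0.56 and -0.53.

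**Figure D1:**
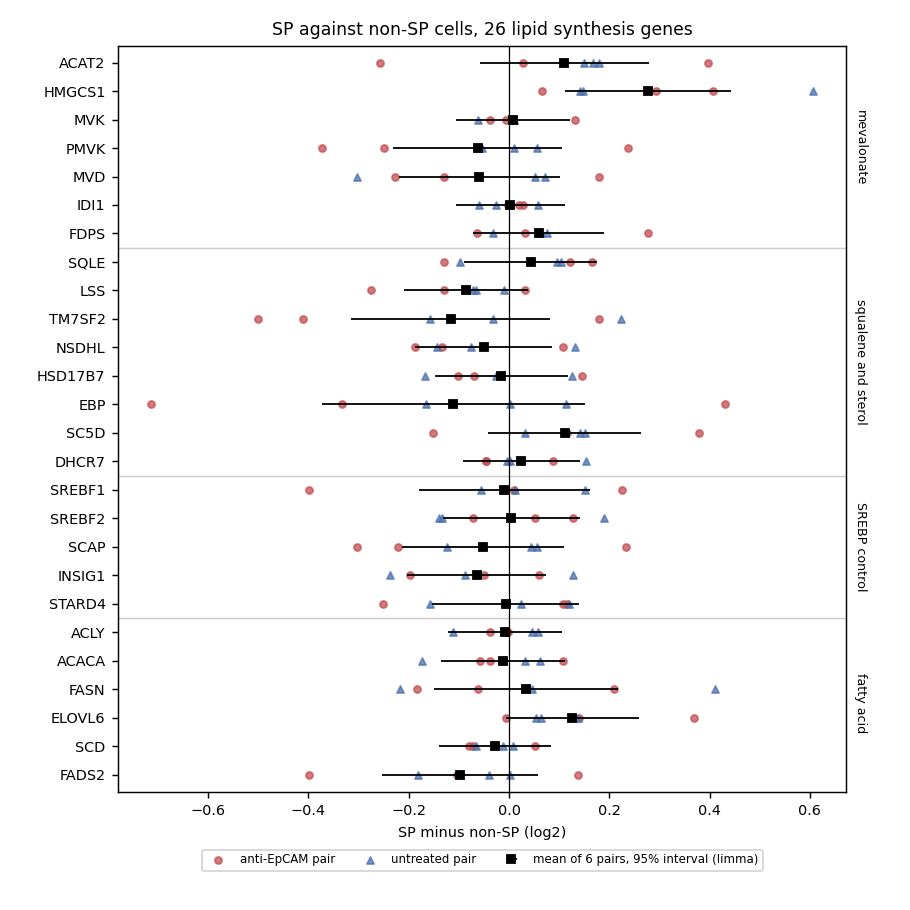
SP minus non-SP log2 expression for the 26 genes, ordered by pathway step, with circles for the 3 anti-EpCAM pairs, triangles for the 3 untreated pairs and squares with bars for the mean of 6 pairs and its 95% interval from limma. HMGCS1, at 0.28, is the gene whose interval lies clear of 0, and the EBP pairs spread the most, from -0.71 to 0.43.

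The mevalonate steps were measured through 7 genes, 5 of them with estimates above 0 in SP cells and a median of 0.0078. HMGCS1, the cytosolic synthase that makes HMG-CoA, read 10.74, 10.88 and 10.94 in anti-EpCAM SP cells, against 10.68, 10.59 and 10.53 in anti-EpCAM non-SP cells (replicates 1, 2 and 3). In untreated cells it read 11.01, 10.47 and 11.14 in SP cells, against 10.86, 10.33 and 10.54 in non-SP cells. The SP array was the higher in each pair, while the groups overlapped in untreated cells and did not overlap in anti-EpCAM cells. The lowest SP array there read 10.74 and the highest non-SP array 10.68, and the share of all genes without such overlap was not counted. In the second, dimmer HMGCS1 probe set the anti-EpCAM groups did overlap, with SP down to 9.17 and non-SP up to 9.55. For the brightest probe set the within-pair differences were 0.07, 0.29 and 0.41 in anti-EpCAM cells and 0.15, 0.14 and 0.61 in untreated cells. They averaged 0.28 ± 0.07 (SE), a 1.21-fold difference with a 95% interval of 1.08 to 1.36-fold, which did not pass over all genes (adjusted p = 0.0922, limma). It was the single member higher in SP cells in all 6 pairs, where 6.03% of all genes were, and 0 members were lower in all 6, where 4.68% of all genes were. The estimate was 0.20 without untreated pair 3, the pair with its largest difference.

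**Figure D2:**
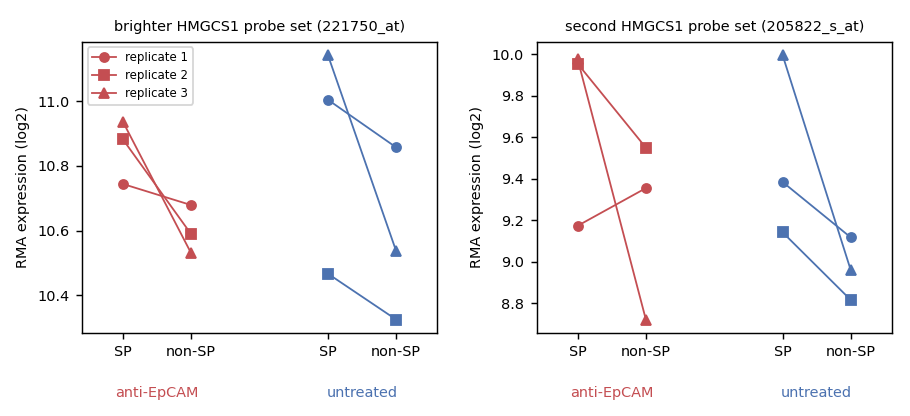
RMA log2 expression of both HMGCS1 probe sets in each of the 12 arrays, SP and non-SP arrays of a pair joined by a line, anti-EpCAM pairs on the left of each panel and untreated pairs on the right. In the brighter probe set every line falls towards non-SP, and in the second probe set that of anti-EpCAM pair 1 rises.

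ACAT2, the cytosolic thiolase that condenses acetyl-CoA ahead of HMGCS1, read 10.25, 10.48 and 10.49 in anti-EpCAM SP cells, against 10.51, 10.45 and 10.09 in anti-EpCAM non-SP cells. It read 10.46, 10.21 and 10.60 in untreated SP cells, against 10.28, 10.04 and 10.45 in untreated non-SP cells. The untreated pairs were each higher in SP cells, by 0.15 to 0.18, while anti-EpCAM pair 1 was lower by 0.26 on the log2 scale and anti-EpCAM pair 3 higher by 0.40. Over 6 pairs ACAT2 had 0.11 ± 0.08 (adjusted p = 0.522, limma). The 5 genes that carry mevalonate on to farnesyl diphosphate stayed nearer to 0. The kinases MVK and PMVK had 0.0078 and -0.063, the decarboxylase MVD had -0.059, the isomerase IDI1 had 0.0028 and the farnesyl diphosphate synthase FDPS had 0.059. IDI1 was the steadiest of these, with pair differences between -0.06 and 0.06.

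Squalene and sterol steps were measured through 8 genes, with 3 estimates above 0, 5 below and a median of -0.033. TM7SF2, a sterol C14-reductase, read 7.02, 7.79 and 8.21 in anti-EpCAM SP cells, against 7.43, 8.29 and 8.03 in anti-EpCAM non-SP cells. In untreated cells it read 7.15, 7.17 and 7.96 in the SP fraction, against 6.93, 7.33 and 7.99 in non-SP. The fractions overlapped in both treatments, and the difference over 6 pairs was -0.12 ± 0.09 (adjusted p = 0.566, limma). EBP, the sterol isomerase, read 10.94, 11.26 and 11.46 in anti-EpCAM SP cells, against 11.66, 11.60 and 11.03 in anti-EpCAM non-SP cells. Untreated values for EBP were 11.32, 11.14 and 11.30 in SP cells, against 11.32, 11.02 and 11.47 in non-SP cells. The EBP difference was -0.71 in anti-EpCAM pair 1 and 0.43 in anti-EpCAM pair 3, the pairs in which the beta-actin ratio differed most, with the opposite sign, and the part of RNA integrity in this spread was not tested. Its mean was -0.11 ± 0.12 (adjusted p = 0.697, limma), and leaving out the first of these pairs gave 0.016, leaving out the other -0.27.

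SC5D, the sterol C5-desaturase near the end of the pathway, read 9.31, 9.79 and 9.45 in anti-EpCAM SP cells, against 9.19, 9.41 and 9.60 in anti-EpCAM non-SP cells. It read 9.47, 9.20 and 9.74 in untreated SP cells, against 9.31, 9.17 and 9.60 in untreated non-SP cells. SC5D was higher in SP cells in 5 of 6 pairs, by a mean of 0.11 ± 0.07 (adjusted p = 0.471, limma). LSS, which closes squalene epoxide into lanosterol, leaned the other way. It read 9.95, 9.50 and 9.56 in anti-EpCAM SP cells, against 9.92, 9.63 and 9.83 in anti-EpCAM non-SP cells. In untreated cells LSS read 9.94, 9.75 and 9.56 in SP cells, against 9.95, 9.82 and 9.63 in non-SP cells. LSS was lower in SP cells in 5 of 6 pairs, by a mean of -0.087 ± 0.056 (adjusted p = 0.489, limma). The other 4 sterol genes lay between -0.051 and 0.043: the squalene epoxidase SQLE at 0.043, the dehydrogenase NSDHL at -0.051, the ketosteroid reductase HSD17B7 at -0.016 and the last enzyme of the pathway, DHCR7, at 0.024. The HSD17B7 and IDI1 probe sets carry the _x_ mark of probes that may also match other transcripts.

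The regulators had the smallest median difference without regard to sign among the 4 roles, at 0.0096 over 5 genes. SREBF1 had -0.0096 ± 0.077 and SREBF2 had 0.0042 ± 0.061 (SE), with 95% intervals of 0.88 to 1.12-fold and 0.91 to 1.10-fold. The escort gene SCAP had -0.052 ± 0.073, and STARD4, which carries cholesterol between membranes, had -0.0071 ± 0.066. INSIG1, itself an SREBP target and a common readout of the pathway, had -0.065 ± 0.063, with 4 of 6 pairs lower in SP cells. HMGCS1 and INSIG1, both sterol-responsive genes, thus had estimates of opposite sign in their brightest probe sets, and the difference between these genes was not tested. The sign for INSIG1 varied by probe set. Its further probe sets had 0.079 ± 0.11, with 4 of 6 pairs higher in SP cells, and -0.017 ± 0.083.

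Fatty acid synthesis was measured through 6 genes, 2 with estimates above 0 and 4 below. ELOVL6, which lengthens palmitate, read 10.41, 10.15 and 9.67 in anti-EpCAM SP cells, against 10.27, 9.78 and 9.68 in anti-EpCAM non-SP cells. It read 10.58, 9.83 and 9.84 in untreated SP cells, against 10.53, 9.76 and 9.70 in untreated non-SP cells. The level of ELOVL6 followed the replicate number more than the fraction, with number 1 highest in each group, and the SP array was the higher in 5 of 6 pairs. Its difference of 0.13 ± 0.06 was the second largest of the 26 and did not pass (adjusted p = 0.330, limma). FADS2, the desaturase that opens polyunsaturated fatty acid synthesis, read 9.76, 9.77 and 10.09 in anti-EpCAM SP cells, against 9.62, 10.17 and 10.19 in anti-EpCAM non-SP cells. Its untreated values were 9.72, 9.78 and 9.76 in SP cells, against 9.72, 9.82 and 9.94 in non-SP cells, and its difference was -0.097 ± 0.070 (adjusted p = 0.539, limma). The other 4 fatty acid genes had estimates between -0.028 and 0.034. ACLY, which releases cytosolic acetyl-CoA from citrate, had -0.0087 ± 0.051, the carboxylase ACACA had -0.012 ± 0.056 and the stearoyl-CoA desaturase SCD had -0.028 ± 0.050. FASN, the fatty acid synthase, had 0.034 ± 0.083, with single pairs from -0.22 to 0.41.

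By treatment, 0 of 26 genes passed in anti-EpCAM pairs, where 0.246% of all genes passed in limma, and 0 of 26 in untreated pairs, where 0.0956% did. At an unadjusted p under 0.05 HMGCS1 was the 1 gene counted in each, where 10.5% of all genes were in anti-EpCAM pairs and 8.88% in untreated pairs. HMGCS1 had 0.26 ± 0.11 in anti-EpCAM pairs and 0.30 ± 0.11 in untreated pairs (SE), with adjusted p of 0.434 and 0.425 in limma. Without untreated pair 3 the untreated estimate was 0.14. The mean over the 26 genes was -0.048, -0.057 and 0.054 in anti-EpCAM pairs 1, 2 and 3 and 0.070, -0.018 and 0.0033 in untreated pairs 1, 2 and 3. Untreated pair 1 was the most one-sided, with 21 genes higher in SP cells and 5 lower, while the median over all genes in that pair was also above 0, at 0.063. Whether the fraction difference changed with the antibody was tested directly, and 0 of 26 genes passed in limma, where 0% of all genes passed; 0 of 26 had an unadjusted p under 0.05, where 1.7% of all genes did. The largest change of the fraction difference was -0.26 in TM7SF2, and HMGCS1 had -0.043 (0.11 without untreated pair 3).

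The second question was what the antibody did to these genes. In SP cells 0 of 26 passed in limma, where 0% of all genes passed, and 0 had an unadjusted p under 0.05, where 0.43% of all genes did. In non-SP cells the counts were again 0 and 0 of 26, beside 0% and 0.41% of all genes, and over the pair means 0 and 0, beside 0% and 0.389%. No member had its 3 anti-EpCAM arrays all above or all below the 3 untreated arrays, in either fraction, where all above held for 1.36% of genes in SP and 1.62% in non-SP cells and all below for 0.369% and 0.601%. These contrasts cross sets of arrays with unlike distributions. They also cross arrays of unlike beta-actin 3′ to 5′ ratio, from 0.94 log2 in anti-EpCAM non-SP replicate 2 to 3.14 in anti-EpCAM SP replicate 1. The part of that ratio in these contrasts was not tested. The median over all genes was itself 0.091 above 0 over the pair means. The median of the 26 genes was 0.043, with 20 above 0 and 6 below, beside 79.5% of all genes above 0. With all arrays quantile normalised together the median over all genes became 0.012 and the mean over the 26 genes became 0.016, against 0.084 as deposited.

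**Figure D3:**
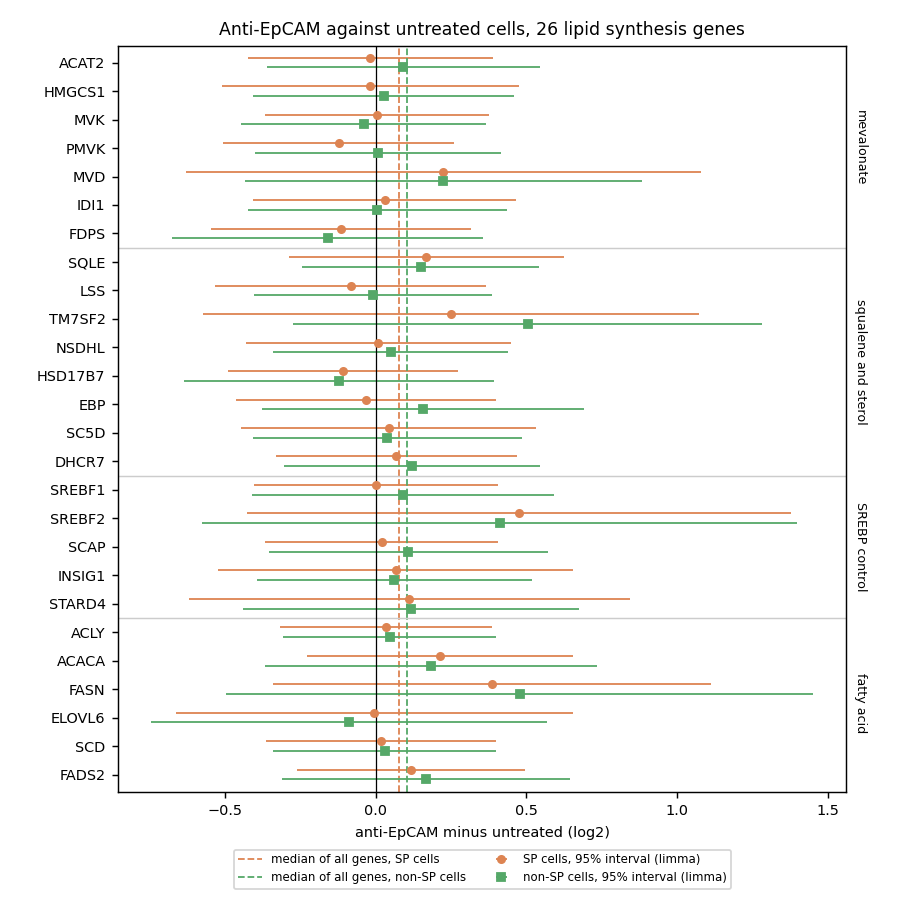
Anti-EpCAM minus untreated log2 expression of the 26 genes in SP cells (circles) and non-SP cells (squares), with 95% intervals from limma over 3 against 3 arrays and dashed lines for the median of all genes. Every interval includes 0, and the widest in either fraction is that of SREBF2.

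The 4 largest antibody differences belonged to genes whose replicates spread widely. SREBF2 read 7.23, 8.17 and 8.59 in anti-EpCAM SP cells, against 7.24, 7.24 and 8.09 in untreated SP cells. In non-SP cells it read 7.18, 8.24 and 8.46 with the antibody, against 7.05, 7.37 and 8.22 without. In both treatments replicate 1 was low and replicate 3 high, the groups overlapped, and the difference was 0.44 ± 0.40 over the pair means (SE). FASN read 8.99, 9.15 and 10.02 in anti-EpCAM SP cells, against 8.84, 8.76 and 9.40 in untreated SP cells. In non-SP cells FASN read 8.78, 9.34 and 10.08 with the antibody, against 8.43, 8.71 and 9.62 without. Replicate 3 was the highest in every group, the treatments overlapped in both fractions, and the difference was 0.43 ± 0.36. TM7SF2, whose values are given above, had 0.38 ± 0.33.

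MVD read 5.68, 6.58 and 6.78 in anti-EpCAM SP cells, against 6.17, 5.56 and 6.63 in untreated SP cells. It read 5.91, 6.71 and 6.60 in anti-EpCAM non-SP cells, against 6.12, 5.86 and 6.56 in untreated non-SP cells. MVD was the dimmest of the 26 probe sets and had 0.22 ± 0.32. All 4 had an adjusted p of 1.00 in limma, and their intervals, such as 0.71 to 2.62-fold for SREBF2, leave room for sizeable changes either way. At the other end, the brightest probe sets of ACLY (0.040 ± 0.14) and SCD (0.024 ± 0.15) varied least of the 26 among the 12 arrays, over ranges of 0.26 and 0.32. Dimmer probe sets of these genes varied more, 1 of ACLY reading from 10.41 to 11.38 and 1 of SCD from 9.96 to 10.98. HMGCS1 had 0.0043 ± 0.18 and INSIG1 0.064 ± 0.22. For 14 of the 26 genes the 95% interval lay within 0.5 log2 of 0, and for 23 within 1 log2.

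Most of these genes are covered by more than 1 probe set, and the probe sets of a gene did not always move together between fractions. The 26 genes had 59 probe sets, 8 genes with 1 and 18 with several. Of the 33 further probe sets, 30 of them above the filter, 19 had a sign opposite to the brightest of their gene. Such opposite signs include estimates near 0, as in SREBF1 with -0.0096 and 0.011. The share over all genes with several probe sets was not counted, so the 19 are given as a description. Tested on their own among 27093 probe sets, 0 of the 56 member probe sets above the filter passed in limma, where 0.413% of all did, and 5 had an unadjusted p under 0.05, where 14.1% of all did. The second, dimmer HMGCS1 probe set read 9.17, 9.96 and 9.98 in anti-EpCAM SP cells, against 9.36, 9.55 and 8.72 in anti-EpCAM non-SP cells. It read 9.39, 9.14 and 10.00 in untreated SP cells, against 9.12, 8.82 and 8.96 in untreated non-SP cells. It had the sign of the brighter probe set in 5 of 6 pairs, with a mean of 0.52 ± 0.18 (adjusted p = 0.266, limma). Its difference was -0.18 in anti-EpCAM pair 1 and 1.26 in anti-EpCAM pair 3. In these pairs the beta-actin ratio differed most, with the opposite sign, and the part of RNA integrity in this spread was not tested.

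Disagreements between probe sets were seen in IDI1 and SQLE. The dimmest of the 4 IDI1 probe sets read 6.10, 6.22 and 7.24 in anti-EpCAM SP cells, against 6.37, 7.21 and 7.46 in anti-EpCAM non-SP cells. It read 5.96, 6.15 and 6.92 in untreated SP cells, against 6.74, 6.42 and 7.56 in untreated non-SP cells. All 6 pairs were lower in SP cells, with a mean of -0.53 ± 0.11 (adjusted p = 0.102, limma), while the 3 brighter IDI1 probe sets had -0.036 to 0.0028. Among the SQLE probe sets, 1 had 0.56 ± 0.26 and was higher in SP cells in 5 of 6 pairs. Another SQLE probe set had -0.38 ± 0.17 and was lower in 5 of 6, beside 0.043 in the brightest. Another kind of disagreement was seen in anti-EpCAM pairs 1 and 3. Of the 56 probe sets, 7 were lower in SP cells by over 0.25 log2 in pair 1 and higher by over 0.25 in pair 3, which is 12.5% beside 4.96% of all probe sets, and 0 ran the other way, beside 1.47%. They belong to ACAT2, ACLY (2 probe sets), EBP, INSIG1, NSDHL and SQLE, and this pattern was picked after its values were seen. The NSDHL one had -1.08 and 0.68 in these pairs, and the SQLE one had -0.80 and 1.39. The beta-actin 3′ to 5′ ratio moved the opposite way in the same pairs (1.86 and -2.09), and its part in these differences was not tested.

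**Figure D4:**
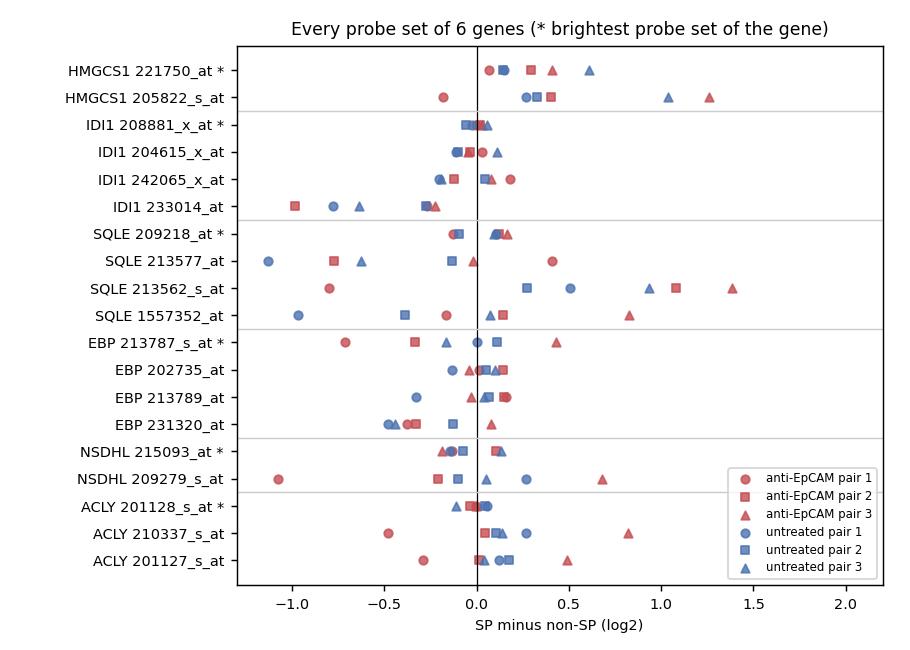
SP minus non-SP log2 expression in each of the 6 pairs for every probe set of HMGCS1, IDI1, SQLE, EBP, NSDHL and ACLY, with an asterisk on the brightest of a gene. The brightest probe sets lie close to 0 except in HMGCS1 and EBP, while the dimmest IDI1 probe set lies below 0 in all 6 pairs and several further probe sets split anti-EpCAM pairs 1 and 3.

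Other genes of lipid handling were read from a list of 43, of which 37 had a probe set of their own and 36 were tested. Over the 6 pairs 0 of the 36 rose and 1 fell in SP cells, beside the 2.47% of all genes that passed, and their median was 0.0037. The gene that fell was NPC2, the lysosomal protein that hands cholesterol from degraded lipoproteins to the membrane for export. NPC2 read 12.26, 11.80 and 11.80 in anti-EpCAM SP cells, against 12.62, 12.49 and 12.19 in anti-EpCAM non-SP cells. In untreated cells it read 12.25, 11.97 and 11.70 in SP cells, against 12.48, 12.37 and 12.06 in non-SP cells. The SP array was the lower of each pair, and the mean difference was -0.41 ± 0.06, or 0.755-fold (adjusted p = 0.0114, limma). The call held when any 1 pair was left out (highest adjusted p = 0.0494, limma). It was lost without anti-EpCAM pairs 1 and 3 together (-0.51, adjusted p = 0.0535), with the trended robust prior (adjusted p = 0.114) and without pairing (adjusted p = 1.00).

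The 1 call among 36 genes is 2.78%, close to the share over all genes. The list held 4 further sterol synthesis genes, 7 SREBP and LXR regulators, 16 fatty acid genes and 9 genes of cholesterol uptake, storage and export, the role that NPC2 belongs to. In 3 of the 36 genes (8.33%) all 6 pairs were lower in SP cells, where 4.68% of all genes were, and in 0 all 6 were higher, where 6.03% of all genes were. Besides NPC2 these were the lipoprotein receptor VLDLR, with -0.27 ± 0.06 (adjusted p = 0.0531, limma), and ACSS2, which makes acetyl-CoA from acetate, with -0.19 ± 0.05 (adjusted p = 0.0950, limma), neither of which passed. In 5 of 6 pairs TMEM97, SOAT1, MBTPS2 and MLXIP were higher in SP cells, with estimates of 0.10, 0.13, 0.079 and 0.048. LRP8, FADS3, SCD5 and INSIG2 were lower in 5 of 6, with -0.16, -0.15, -0.15 and -0.0056, and none of these 8 passed. The share of all genes at 5 of 6 pairs was not counted, so these 8 are listed as a description and not as a pattern. In the antibody comparison over the pair means 0 of the 36 passed, with a median of 0.084.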

How the data were processed

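Total RNA from 12 sorted samples was hybridised to Affymetrix arrays. The authors deposited log2 values summarised by RMA for each probe set, as the submitters' processing notes name it; the RMA version and the arrays processed together are not given in the sources used here. Values ranged from 2.43 to 15.0. Sorted values differed by a mean of 0.00933 to 0.0215 between the arrays of a pair, against 0.0458 to 0.525 for all other array pairs, so antibody contrasts cross sets. The depth of an array is not a count, and the number of arrays limits the precision.

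Control probe sets (62) were dropped. Of the other 54613, 41091 carried 1 gene symbol in the probe table, 1801 several and 11721 none. A gene's probe set was the one with the highest mean over the 12 arrays, kept above the 40th percentile (5.39). Tests used limma 3.58.1 in R 4.3.3, two-sided, with Benjamini-Hochberg adjustment over all 14649 genes: within-pair differences for fractions, and group means (each fraction apart) or pair means for the antibody. Pairing comes from the data, since arrays sharing a number deviated together from their group means: r was 0.62 to 0.89 for the 6 SP and non-SP pairs. Across treatments, in SP and non-SP cells, r was 0.71 and 0.73 for number 1 and 0.64 and 0.60 for number 3, but -0.18 and -0.11 for number 2, so numbers were not used as pairs across treatments. The p-values treat the 6 pairs as independent, and the labels call them biological replicates without naming separate cultures. The code of the fits was run on simulated data with normal noise drawn independently for each gene. Effects shared across genes were not simulated, so that run does not show how the fits behave on these arrays.

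Values were named for members passing any test, the 8 largest fraction differences and the 4 largest antibody differences. The members and lists were chosen with earlier results of these data known. Alternatives covered pairing, quantile normalisation, the filter, the choice of probe set, the variance prior, leaving out pairs, and the GAPDH and beta-actin 3′ to 5′ ratios as covariates, the last added after the data were seen, as was the test of each probe set by itself.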

Additional observations from a re-analysis of the deposited data

How the results depend on the processing

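The count of members called stayed at 0 in all 7 comparisons under every alternative run, and the mean over members moved by less than its spread between replicates. Without the replicate block, with the 12 arrays taken as independent, 0 members passed for SP against non-SP and the mean stayed at 0.00065, while the genes called on the whole array went to 0, against 362 over pairs. With the replicate block for the antibody comparison 0 members passed, and the mean over members stayed at 0.084. When 1 pair was left out, the mean over members ranged from -0.017 to 0.011 for SP minus non-SP over both treatments, and from 0.0049 to 0.16 for the antibody over both fractions. HMGCS1 in SP minus non-SP ranged from 0.20 to 0.40 over the alternatives, the highest as the mean of its probe sets. Its adjusted p ran from 0.0640 without anti-EpCAM pair 1 to 1.00 without pairing. With the beta-actin ratio as a covariate, chosen after seeing the data, it was 0.0690. Among single members the sign changed in 32 of 389 refitted values for SP minus non-SP over both treatments and in 43 of 337 for the antibody over both fractions, each in genes that did not pass. IDI1 became -0.15 as the mean of its probe sets, against 0.0028. A variance prior with trend and robust estimation called 0 genes on the whole array for SP minus non-SP, and NPC2 then had adjusted p = 0.114. Without pairing NPC2 had adjusted p = 1.00. Leaving out 1 pair called 72 to 430 genes on the whole array, and leaving out anti-EpCAM pairs 1 and 3 called 27. VLDLR passed under the stricter filter (adjusted p = 0.0433), where fewer genes were tested. The causes of these changes were not tested. Scanner intensities over background were not used here, so their limit on dim probe sets is not given.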
